A study of Homo sapiens with 6 samples.

Results

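The genes described here are 10 members of the netrin and SLIT guidance systems, taken by name from the 19775 genes that the arrays measured through probe sets with a single gene symbol. They are the ligands NTN1, NTN4, SLIT2 and SLIT3 and the receptors DCC, NEO1, UNC5B, UNC5C, ROBO1 and ROBO2, which together had 28 of the 41091 probe sets. RNA came from U87-2M1, an invasive subline of the human glioma line U87 that was recovered from an experimental lung metastasis assay and returned to culture. All cells were at passage 4, were kept in hypoxia and carried a baculoviral vector, so the controls were transduced too. In 3 arrays the vector held a control decoy, and in the other 3 it held a decoy for miR-10b, a transcript meant to bind that microRNA. Nothing in the labels says that the replicates were separate cultures, so the errors may be technical. The level of miR-10b itself was not measured here.

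Netrins are secreted proteins related to laminins that steer growing axons and migrating cells. They attract through DCC and its relative neogenin (NEO1), and repel when an UNC5 receptor takes part. SLITs are large secreted proteins that bind ROBO receptors and mostly repel, and SLIT-ROBO signalling can silence attraction through DCC. DCC and the UNC5 receptors are also called dependence receptors, since they can promote cell death when netrin is missing. In gliomas these ligands and receptors have been studied mainly for their part in invasion.

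Values are MAS5 signals, the linear intensity that the authors deposited for each probe set. Signals of different probe sets are not on one scale, so levels are compared between arrays and never between genes. The brightest probe set of a gene, by its mean log2 value, was taken as the main one. Genes in the lowest 30% by mean, under a signal of 14.2 (the filter level), were left out of the fit across all genes. A relative log2 difference is the mean log2(signal + 7) with the miR-10b decoy minus that of controls, less the median of all tested genes, and differences of dim genes are understated on this scale. That median was -0.14 as deposited and -0.02 after quantile normalization. The limma fits tested the difference before that median was taken away, and calls and adjusted p-values refer to that unshifted difference. As deposited, it is the relative value plus the median of -0.14. A relative value printed beside an adjusted p is thus higher than the value tested. The 10 genes were chosen with this comparison already known, so their differences are a description, with a standard error (SE) from the fit and no test.

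Pearson correlations across the tested genes were 0.985 to 0.988 inside a group and 0.967 to 0.974 from one group to the other. Control replicate 3 was brighter than the rest, with a trimmed mean signal of 192 against 155 to 163 on the other 5 arrays. The 3'/5' signal ratio of actin, a sign of RNA integrity, was 5.27 to 6.22 in controls and 7.36 to 10.6 with the miR-10b decoy, whereas that of GAPDH was 0.931 to 0.967 and 0.934 to 0.948. Its part in the differences below was not tested. Of 8 astroglial and glioma markers, VIM, CD44, CHI3L1, NES and SOX9 were above the filter level on all 6 arrays, but the defining astrocyte markers GFAP (1.58 to 3.56) and S100B (0.547 to 2.10) were near 0. NES was called lower with the miR-10b decoy (-0.33, limma adjusted p = 0.0061). VIM (-0.01), CD44 (0.01), CHI3L1 (0.01) and SOX9 (0.02) were not called, and neither was SOX2 (-0.47). The oligodendrocyte marker MAG was called lower (-0.70, limma adjusted p = 0.022). The oligodendrocyte markers MBP (0.39) and MOG (-0.37) were not called, and SOX10, which was not tested, averaged 7.92 in controls and 14.1 with the decoy. Summed signals of the oligodendrocyte list overlapped, at 83.9 to 127 in controls and 59.8 to 104 with the decoy. A change in the share of cells that make a transcript and a change in the amount per cell cannot be told apart in these bulk samples.

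Of the 10 genes, DCC lay lower with the miR-10b decoy by more than the spread of the arrays, and UNC5B lay higher. NTN4, NEO1, SLIT2, SLIT3 and ROBO1 had overlapping groups on their main probe sets. NTN1, UNC5C and ROBO2 stayed under the filter of the fit across all genes and were not tested there. Among the 7 tested genes, 1 (DCC) was called lower and 1 (UNC5B) higher in the limma fit at an adjusted p of 0.05, while 18.3% of all 13842 genes were called lower and 7.79% higher, 26.1% in all. These were also the 2 main probe sets whose groups did not overlap among the 7, against 29.2% of genes with the decoy lower and 10.9% with it higher. Nothing is read from these counts, because the comparison chose the genes. The median relative log2 difference of the 7 was 0.21, beside 0 for all genes by construction.

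**Figure D1:**
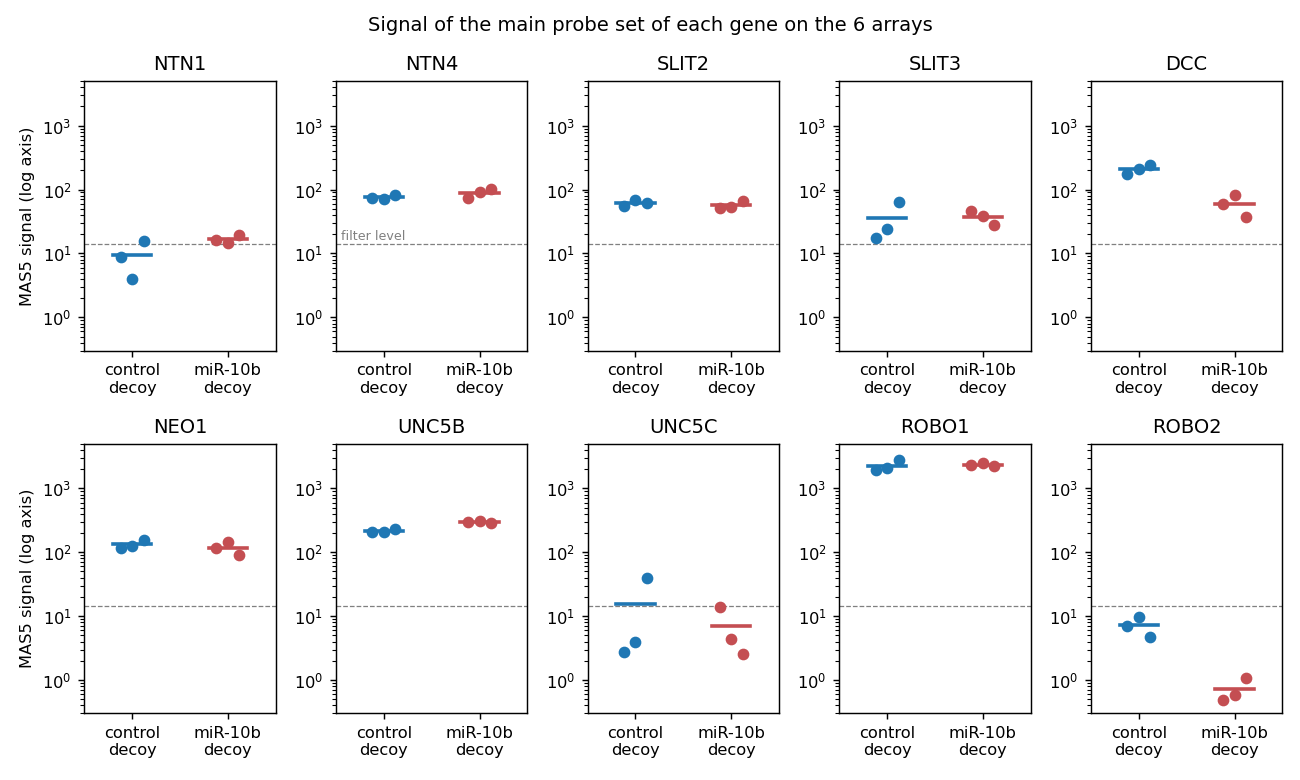
MAS5 signal (log axis) of the main probe set of each of the 10 genes on the 3 control decoy arrays (blue) and the 3 miR-10b decoy arrays (red). Points are arrays, bars are group means and the dashed line is the filter level of 14.2. The DCC points of the groups are apart, with 178 or more in controls and 82.0 or less with the miR-10b decoy, and all ROBO2 points lie under the dashed line.

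Among the ligands, netrin-1 (NTN1), the founding secreted netrin, had low signals. Its main probe set read 8.67, 4.04 and 15.9 in control replicates 1 to 3 and 16.4, 14.6 and 19.6 with the miR-10b decoy. All 3 decoy arrays were thus just above the filter level and 2 of 3 control arrays under it, but the groups overlapped. A second NTN1 probe set, which the platform annotation ties to the RefSeq mRNA, went the other way, from 14.3 ± 4.64 to 6.34 ± 4.85 (SD, n = 3). The third read 7.85 ± 4.77 and 11.0 ± 6.07 (SD, n = 3). The 3 probe sets therefore disagree on the sign for NTN1, at signals near the filter level.

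Netrin-4 (NTN4), which binds laminins and lies in basement membranes, had a single probe set. Its signals were 72.6, 72.0 and 81.1 in controls and 72.5, 90.1 and 104 with the miR-10b decoy. Decoy replicate 1 lay between control replicates 1 and 2, so the groups overlapped, and the relative log2 difference was 0.35 (SE 0.19). Without decoy replicate 3, the highest array, that difference changed to 0.21, and without decoy replicate 1 it was 0.46.

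SLIT2, the best studied ROBO ligand, was measured above the filter level. The main probe set read 56.1, 69.1 and 62.0 in controls and 51.8, 53.3 and 65.6 with the miR-10b decoy, and the groups overlapped (relative log2 difference 0.02, SE 0.22). A second probe set gave -0.01 (SE 0.24), its control arrays averaging 42.4 ± 6.82 and its decoy arrays 37.4 ± 2.92 (SD, n = 3). In the third, dimmer one, all 3 decoy arrays (24.1, 14.5 and 12.5) were under all 3 control arrays (32.7, 28.0 and 26.1), a relative log2 difference of -0.47 (SE 0.30). The main and the second probe set have the suffix that Affymetrix gives to probes shared by several transcripts, which the third does not.

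SLIT3, a paralogue of SLIT2, varied widely among the control arrays. Its main probe set read 17.4, 24.5 and 65.0 in controls, the last being the brightest array, and 45.6, 38.7 and 27.7 with the miR-10b decoy. The relative log2 difference was 0.33 (SE 0.29), and 0.70 without control replicate 3 or 0.06 without control replicate 1. A second probe set, with the same kind of suffix, gave 28.9, 4.40 and 13.7 in controls and 53.1, 35.8 and 25.0 with the decoy, a relative log2 difference of 1.23 (SE 0.43). The lowest decoy array there, 25.0, was under control replicate 1, and 2 of the 3 control arrays were under the filter level. The third was under the filter level on all 6 arrays, at 2.03 to 3.26 in controls and 3.78 to 10.9 with the decoy. All 3 SLIT3 probe sets had positive relative differences of unlike size, but the third, under the filter level, gives no measure of a difference.

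Among the netrin receptors, DCC had the widest gap. DCC is a transmembrane receptor of the immunoglobulin superfamily, named for its deletion in colorectal carcinoma. Its main probe set read 178, 208 and 238 in control replicates 1 to 3 and 58.6, 82.0 and 37.0 with the miR-10b decoy. The lowest control array lay well above the highest decoy array, and all 6 arrays were above the filter level. Controls averaged 208 ± 30.2 and decoy arrays 59.2 ± 22.5 (SD, n = 3), a 3.51-fold excess in controls, and the relative log2 difference was -1.61 (SE 0.18). It ranged from -1.83 to -1.37 when arrays were left out in turn, and was -1.60 without the bright control replicate 3 and -1.62 after quantile normalization.

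That DCC difference rests on 1 probe set of 3. The main probe set is tied by the annotation to an expressed sequence tag, a short partial cDNA read. The probe set tied to the RefSeq mRNA of DCC was dim, at 6.95, 1.29 and 12.9 in controls and 2.58, 9.19 and 1.47 with the miR-10b decoy. The third read 2.24, 1.63 and 6.57 in controls and 3.50, 3.29 and 6.62 with the decoy. On these both groups overlapped and all 6 arrays were under the filter level, so they give no measure of a difference. Averaging the 3 probe sets gave DCC a relative log2 difference of -0.49, and the call ended. The call also ended when each gene kept its own variance, with no moderation, a setting in which 1.42% of all genes were called higher and 2.26% lower. In what part of the DCC locus the bright probe set lies was not determined here.

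Of 5 neuronal markers, GAP43, a growth cone protein, and SNAP25, a protein of synaptic vesicle release, were also lower, at -1.38 and -0.82. The summed signal of the 5 was 1119 to 1406 in controls and 614 to 659 with the miR-10b decoy. SYT1, a synaptic vesicle protein, was not called (-0.21, limma adjusted p = 0.071). RBFOX3, which marks mature neurons, averaged 11.0 in controls and 3.32 with the decoy, and STMN2 went the other way at 2.10 and 8.13, both means under the filter level. The part of this list in the DCC difference was not tested.

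Neogenin (NEO1), which binds netrins and the repulsive guidance molecules, gave unlike results from its probe sets. The main one read 118, 125 and 157 in controls and 117, 144 and 90.3 with the miR-10b decoy, and the groups overlapped (relative log2 difference -0.05, SE 0.17). The second read 53.7, 61.5 and 80.9 in controls and 89.8, 92.9 and 82.8 with the decoy. There all 3 decoy arrays were above all 3 control arrays, though the nearest arrays differed little, and the relative log2 difference was 0.55 (SE 0.19). The third was near 0 on all arrays, between 0.445 and 4.61.

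UNC5B, the netrin receptor that is also found on blood vessels, lay higher with the miR-10b decoy on 2 of its 3 probe sets. The main one read 210, 205 and 230 in controls and 302, 306 and 292 with the decoy, with no overlap. The means were 215 ± 12.9 and 300.0 ± 7.40 (SD, n = 3), a 1.39-fold ratio and a relative log2 difference of 0.61 (SE 0.14). The dimmest of the 3 read 48.6, 45.9 and 65.8 in controls and 96.9, 92.3 and 77.0 with the decoy, again with no overlap, at a relative log2 difference of 0.81 (SE 0.20). The remaining probe set overlapped, with 130, 157 and 165 in controls and 123, 145 and 179 with the decoy (0.11, SE 0.16). When all UNC5B probe sets were averaged its call ended, at a relative log2 difference of 0.51. Of 5 endothelial markers, PECAM1 and TEK were lower (-0.37 and -0.53), and KDR was not called (-0.12). CDH5 and VWF were under the filter level on all arrays. The summed signal of the 5 was 269 to 323 in controls and 194 to 205 with the decoy. The part of this list in the UNC5B difference was not tested.

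UNC5C, a related repulsive netrin receptor, lay under the filter level on all arrays for most of its 5 probe sets. The main one read 2.78, 3.89 and 39.0 in controls and 14.1, 4.45 and 2.58 with the miR-10b decoy. Only control replicate 3 was above the filter level, and the other 4 probe sets lay between 0.170 and 11.5 on all arrays. No direction can be given for UNC5C.

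**Figure D2:**
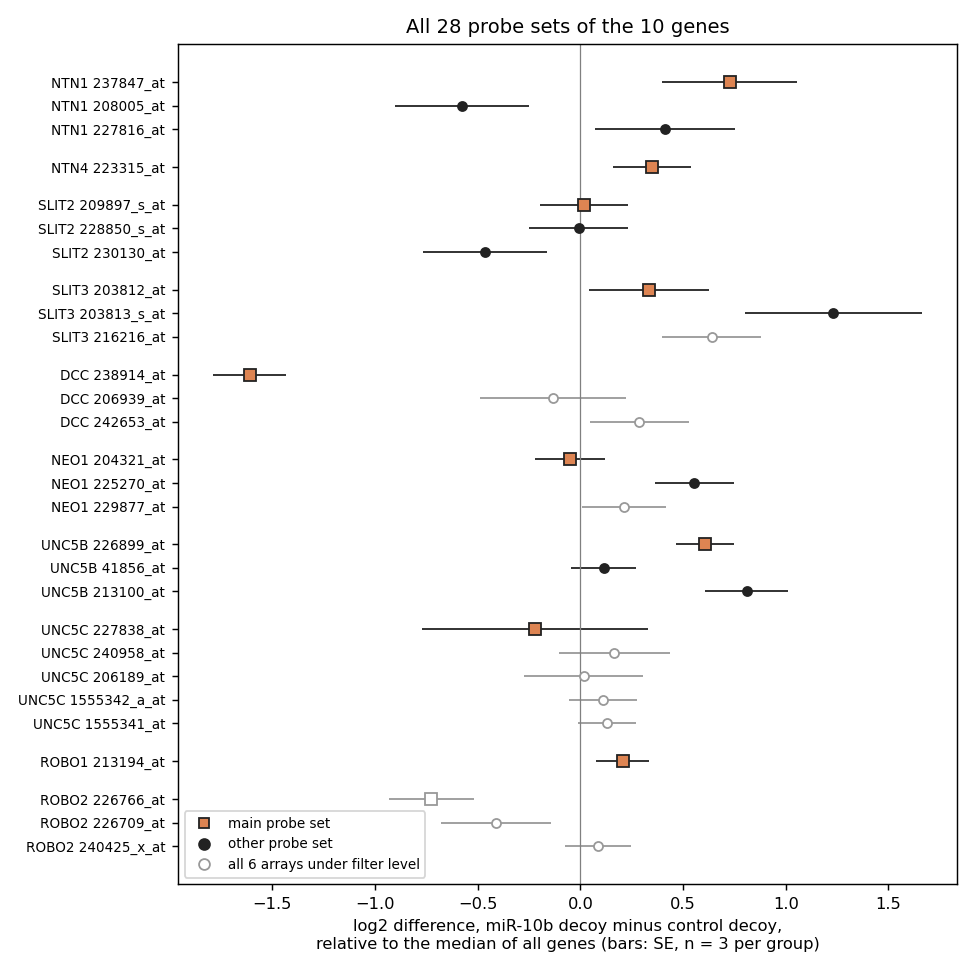
Relative log2 difference (miR-10b decoy minus control decoy, less the median of all genes) of all 28 probe sets, with SE bars and 3 arrays per group. Squares are main probe sets, and open grey symbols are probe sets whose 6 arrays all lay under the filter level. The bright DCC probe set stands alone at -1.61, while the other DCC probe sets, at -0.13 and 0.29, are open symbols.

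ROBO1, the SLIT receptor of many migrating cells, had 1 probe set, with signals of 1948, 2069 and 2766 in controls and 2298, 2492 and 2244 with the miR-10b decoy. The 3 decoy arrays fell inside the range of the controls, which control replicate 3 widened at its upper end. The relative log2 difference was 0.21 (SE 0.13). ROBO1 was called higher after quantile normalization and without control replicate 3, at relative log2 differences of 0.23 and 0.27, and in none of the other fits with 1 probe set per gene. The fit of every probe set after quantile normalization called it higher as well.

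ROBO2, a SLIT receptor of the developing nervous system, was under the filter level on all 6 arrays of all 3 probe sets. Its main probe set read 7.07, 9.85 and 4.68 in controls and 0.482, 0.585 and 1.07 with the miR-10b decoy. The groups were apart, but both lay under the filter level, so no fold is given. The second probe set overlapped, at 0.552, 4.09 and 9.87 in controls and 0.566 to 0.878 with the decoy, and the third read 0.771 to 2.43 and 0.779 to 1.39.

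Across all 28 probe sets, 4 had the 3 decoy arrays above the 3 control arrays and 3 had them below, while 21 overlapped. Over all probe sets of the arrays, 8.00% lay apart with the decoy higher and 21.5% with the decoy lower. The 4 were 2 of UNC5B, 1 of NEO1 and 1 of SLIT3 under the filter level. The 3 were 1 each of DCC, SLIT2 and ROBO2, the last under the filter level. All 6 arrays were above the filter level for 11 of the 28 probe sets and under it for another 11. Tested one by one, 14 probe sets passed the filter, and 3 of these were called higher (2 of UNC5B and 1 of SLIT3) and 1 lower (DCC), beside 5.90% and 13.7% of all probe sets. After quantile normalization 5 were called higher, with NEO1 and ROBO1 added, and 1 lower, beside 12.4% and 12.5%.

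**Figure D3:**
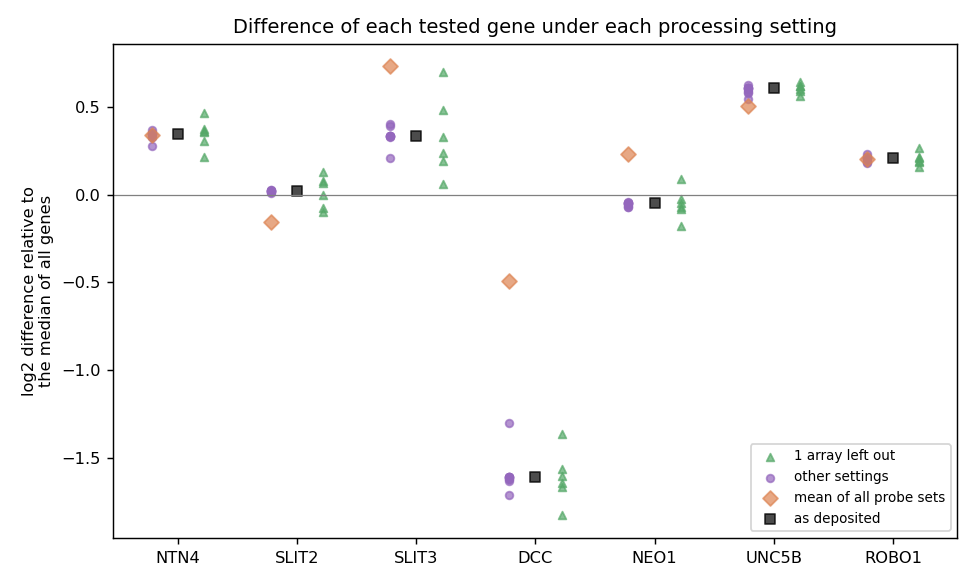
Relative log2 difference of the 7 tested genes under each processing setting, with 1 probe set per gene except where the mean of all is shown. Black squares are values as deposited, orange diamonds the mean of all probe sets of the gene, purple circles other settings and green triangles the fits with 1 array left out. DCC stays between -1.83 and -1.30 except for the mean of all probe sets, at -0.49, and UNC5B stays between 0.51 and 0.64.

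The 5 genes whose pattern was most like that of DCC over the 6 arrays were SPAG5 and CDCA5, which act in mitotic spindle function and sister chromatid cohesion, OGDH of the citric acid cycle, the interferon gamma receptor subunit IFNGR2 and the ubiquitin ligase MIB2. Their Pearson r with DCC on the log2(signal + 7) scale was 0.998 to 0.999, which is a description over 6 arrays in 2 groups, picked from all tested genes. Like DCC, each read highest in control replicate 3, the brightest array, among controls and lowest in decoy replicate 3 among decoys. This shared order follows from how the genes were picked. SPAG5, for example, read 553, 586 and 619 in controls and 390, 426 and 333 with the decoy. Their relative log2 differences, from -0.85 for CDCA5 to -0.26 for OGDH, were smaller than that of DCC.

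**Figure D4:**
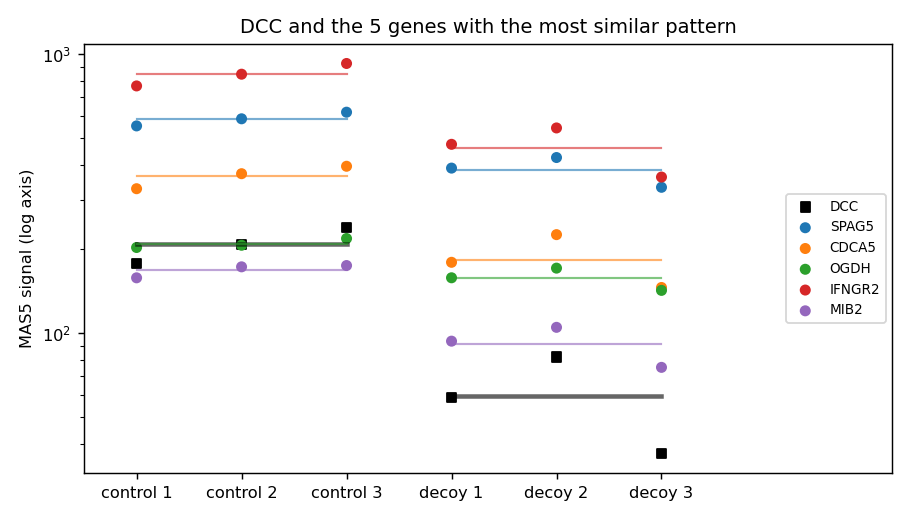
MAS5 signal (log axis) of DCC (black squares) and of the 5 genes most like it (coloured circles) on each array, with lines at the group means. All 6 genes read lowest in decoy replicate 3, where DCC is at 37.0.

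The other genes of these pathways were taken from lists made by role. Of 63 listed genes, 52 passed the filter, and 5 of them were called higher and 12 lower in the limma fit at adjusted p under 0.05, beside the 7.79% and 18.3% of all genes. Their median relative log2 difference was 0.04. After quantile normalization 10 were higher and 10 lower, beside 16.4% and 17.6% of all genes, and after centring on the array median 16.4% and 17.3% of all genes were. With no moderation 0 passed in limma, beside 1.42% and 2.26% of all genes. At an unadjusted p under 0.05 in that fit, 4 of the 52 were higher and 11 lower, beside 1159 and 2725 of all 13842 genes.

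Of 13 other ligands and receptors that were tested, 2 were higher and 2 lower. FLRT2, a membrane protein that binds UNC5 receptors, rose from 961 ± 165 to 1661 ± 61.3 (SD, n = 3), at 0.94 (SE 0.13, limma adjusted p = 2.3e-07). ROBO3, a ROBO receptor of commissural axons, passed at 0.68 (SE 0.21, limma adjusted p = 0.045), but 1 control array read 29.1 against 73.2 and 75.7 in the others, and the call ended in 13 of 17 alternatives. Without that array, control replicate 2, the ROBO3 difference was 0.33 (limma adjusted p = 0.66). NTNG1 is a membrane-anchored netrin that binds neither DCC nor UNC5. It was called lower, at -0.46 (SE 0.14, limma adjusted p = 4.4e-04), although 1 of its 3 probe sets had the opposite sign. RGMB, a neogenin ligand, was called lower at -0.34 (SE 0.13, limma adjusted p = 0.0023), and 1 of its 4 probe sets likewise had the opposite sign. Without miR-10b decoy replicate 3 the RGMB call ended, at -0.30. When all probe sets were averaged the NTNG1 and RGMB calls ended. The 9 that did not pass were NTNG2 (0.39), GPC1 (0.33), SLIT1 (-0.28), RGMA (-0.34), UNC5D (0.60), ROBO4 (-0.24), FLRT3 (0.03), BOC (-0.03) and CDON (-0.17), given as relative log2 differences. Quantile normalization made GPC1 and UNC5D pass as higher (limma adjusted p = 0.034 and 0.046), and centring on the array median did so for GPC1 (limma adjusted p = 0.026). With 1 array left out, NTNG2 changed sign (-0.13 without control replicate 1), as did CDON (0.04 without miR-10b decoy replicate 3), FLRT3 (-0.09 without control replicate 2) and BOC, and the values nearest to 0 were -0.08 for RGMA (without control replicate 3) and, both without decoy replicate 1, -0.10 for SLIT1 and -0.04 for ROBO4.

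Of 21 effectors of netrin receptors, 2 were higher and 4 lower. EVL, an actin regulator of the Ena/VASP family, had the smallest p, at -0.92 (SE 0.18, limma adjusted p = 9.6e-07), followed by CDC42 at -0.40. Averaging all probe sets ended the CDC42 call, at -0.23 (limma adjusted p = 0.073). The ubiquitin ligases SIAH1 and SIAH2, which target DCC for degradation, were called in opposite directions, at 0.69 and -0.47. The SIAH1 groups overlapped, with control replicate 3 at 489 and decoy replicate 1 at 476, and its call ended with no filter (limma adjusted p = 0.051), with no intensity trend (0.094) and with all probe sets averaged (0.24). Of 10 SLIT-ROBO effectors, the kinase ABL2 was higher, at 0.89 (SE 0.14, limma adjusted p = 5.9e-06), and the GTPase activator SRGAP3 lower, at -0.57, a call that ended after quantile normalization (limma adjusted p = 0.052). Among 4 partners of dependence receptors CASP9 and MAGED1 were lower, at -0.57 and -0.54, and among 4 genes of receptor shedding ADAM10 (-0.41), NCSTN (-0.31) and BACE1 (-0.34) were, the BACE1 call ending after quantile normalization (limma adjusted p = 0.134). On the main probe sets of SRGAP3 and BACE1 the groups overlapped, while the other BACE1 probe sets were lower without overlap (-0.45, -0.72 and -0.66). Averaging all probe sets kept the BACE1 call, at -0.55 (limma adjusted p = 0.0037), and ended those of SRGAP3 (limma adjusted p = 0.39) and NCSTN (limma adjusted p = 0.055). Among these effectors, leaving out miR-10b decoy replicate 3 ended the SIAH1 and SRGAP3 calls (relative log2 differences of 0.52 and -0.31), decoy replicate 2 the NCSTN call (-0.25), control replicate 3 the SRGAP3 and BACE1 calls (-0.50 and -0.36), and control replicate 2 or decoy replicate 1 the BACE1 call (-0.18 and -0.18).

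**Figure D5:**
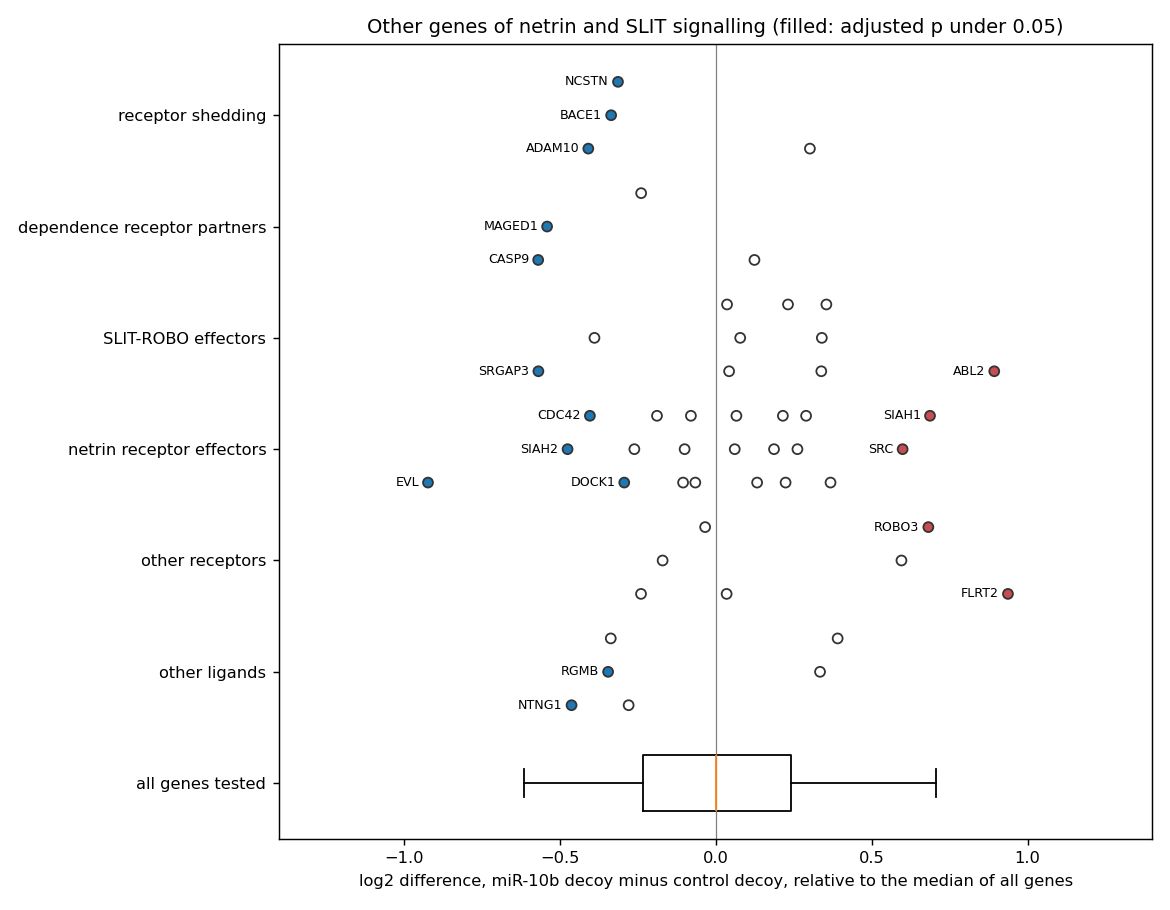
Relative log2 difference of the 52 other tested genes by role, with filled red symbols for genes higher and filled blue symbols for genes lower at a limma adjusted p under 0.05. The box spans the quartiles of all tested genes and its whiskers reach from the 5th to the 95th percentile (-0.62 to 0.71). EVL at -0.92 and FLRT2 at 0.94 lie at the ends of the lists.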

How the data were processed

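The deposited values are linear signal intensities for 54675 probe sets on 6 arrays, made by the authors with MAS5 per the submitters' processing notes. The version and scaling target of MAS5 are not given in sources used here. Probe sets were named from the platform annotation where it gave 1 symbol (41097), leaving out control probe sets. Entrez identifiers matched a RefSeq table (GRCh38.p14) for 41037 of the 41091 used.

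Signals became log2(signal + 7). The probe set with the highest mean log2 value stood for each gene, genes under the 30th percentile were left out, and 13842 were fitted with limma 3.58.1 (R 4.3.3; lmFit, eBayes with an intensity trend, two-sided, Benjamini-Hochberg over all genes). No further scaling was applied. The variances drew on 158 prior against 4 residual degrees of freedom, so very small p-values rest on variance shared across genes. The fit was also run on simulated arrays with independent noise and no brighter array, which does not show how it performs on these data. SEs of other probe sets come from a fit of every probe set without a filter.

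The 10 genes and all lists were chosen with earlier results of these data known. Named were the 10 genes, every tested ligand and receptor, up to 4 called effectors per list by smallest p, and the 5 genes most correlated with DCC. Of the listed genes, 3 are not reported here. Alternatives were quantile normalization, centring, 2 offsets (1 and 32), 2 filters (none and the 50th percentile), the mean of all probe sets, every probe set alone, no trend, no moderation, the replicate number as a block and each array left out. Every probe set alone after quantile normalization was added after seeing the data. The plan named only the mean signal for the choice of probe set and the filter. Both were first run with the arithmetic mean (filter level 15.6, 1094 genes higher and 2561 lower). They were changed to the mean of log2 values, which matched an earlier processing of these data, after both sets of counts had been seen. The arithmetic mean is kept as an added alternative. The labels do not say whether replicate numbers pair the arrays, and no sign of pairing was seen.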

Additional observations from a re-analysis of the deposited data

How the results depend on the processing

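Over all genes, 1078 higher and 2537 lower became 2276 higher after quantile normalization and 2276 after centring on the array median, with 2440 and 2390 lower. The mean of all probe sets gave 554 and 1503, no intensity trend 634 and 1339, no moderation 196 and 313, and no filter 1624 lower. Every probe set by itself gave 1698 and 3935, and 3556 higher when also quantile normalized. With arrays left out in turn the counts ran from 717 to 1891 higher and from 1450 to 2593 lower, the highest count of rises being without control replicate 3 and both lowest counts without miR-10b decoy replicate 3.

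Of the members, 1 higher and 1 lower became 2 higher after quantile normalization and 2 lower with no filter (ROBO2 added). With the mean of all probe sets by limma they became 0 and 0 (2 higher and 1 lower at an unadjusted p under 0.05). With no moderation 0 were lower (1 at an unadjusted p under 0.05). At that unadjusted threshold, 1067 of all 13842 genes were higher and 3131 lower with the mean of all probe sets. With no moderation 1159 of all genes were higher and 2725 lower. By probe set, 3 were higher, or 5 after quantile normalization. With arrays left out in turn, 1 to 2 were higher and 1 was lower.

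For the other guidance genes, 5 higher and 12 lower became 10 higher after quantile normalization or centring and 3 higher with no filter. They became 2 higher and 6 lower with the mean of all probe sets, and 2 higher with no trend. By limma with no moderation they became 0 and 0. At an unadjusted p under 0.05 in that fit they were 4 and 11, beside 1159 and 2725 of all 13842 genes. By probe set the counts were 10 and 26, or 16 and 21 after quantile normalization. With arrays left out they ran from 3 to 8 higher (8 without control replicate 3, 3 without miR-10b decoy replicate 1 or 3) and from 9 to 11 lower. Of the 17 genes called as deposited, 14 kept their call and direction after quantile normalization.

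No sign of pairing by replicate number was seen. Deviations of arrays with the same number correlated with r of 0.04, -0.03 and -0.00340, and those with unlike numbers with r of -0.03 to 0.04. The labels do not say what the numbers mean, and this check cannot show that the cultures were separate. With the replicate block 965 genes were higher and 2182 lower, members stayed at 1 and 1, and the other guidance genes at 4 and 11. No called gene named here changed sign. Of the genes not called, 8 crossed 0: NTNG2 ran from -0.13 to 0.84, RGMA from -0.63 to 0.30, SLIT1 from -0.40 to 0.03, CDON from -0.29 to 0.04, BOC from -0.23 to 0.10, FLRT3 from -0.09 to 0.11, NEO1 from -0.18 to 0.23 and SLIT2 from -0.16 to 0.13. Choosing probe sets and filter by the arithmetic mean of signal changed the main probe set of 89 genes and of 0 members, gave 1094 higher and 2561 lower over all genes, and left the members at 1 and 1 and the other guidance genes at 5 and 12. The causes of these moves were not tested. Signals under the filter level limit NTN1, UNC5C and ROBO2.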

Other observations

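Transcripts that lie within or opposite 3 of these genes were also on the arrays. The antisense transcript UNC5B-AS1 read 22.3, 11.6 and 27.7 in controls and 10.9, 18.9 and 23.1 with the miR-10b decoy, so its groups overlapped while those of the main UNC5B probe set did not. SLIT3-AS1 read 4.34 to 31.2 in controls and 2.46 to 27.6 with the decoy. The intronic transcript SLIT2-IT1 was under the filter level on all arrays, between 0.618 and 10.4. Among netrin and UNC5 genes that did not pass the filter, NTN5 read 20.6, 24.1 and 21.8 in controls and 1.79, 17.5 and 6.50 with the decoy. UNC5A read 1.52 to 2.00 in controls and 3.41 to 13.1 with the decoy, all under the filter level. These values were picked after they were seen. UNC5B-AS1 was not called in the limma fit, nor SLIT3-AS1 and NTN5 in the fit of every probe set, while SLIT2-IT1 and UNC5A passed neither filter.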
